A study of Mus musculus with 8 samples.

Results

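A set of 9 trophoblast lineage regulators was followed through RNA-seq libraries of mouse ESCs and of cells at day 5 of SMN differentiation. The genes were *Cdx2*, *Gata2*, *Gata3*, *Elf5*, *Tfap2a*, *Tfap2c*, *Hand1*, *Tead4* and *Esx1*, 9 of the 36808 genes in the expression table. They were chosen by name as trophoblast-linked transcription factors and not by a rule on measured values, but with earlier results of these data known. In the table, 7 of them stand under these symbols, and *Tfap2a* and *Tfap2c* under the older symbols *Tcfap2a* and *Tcfap2c*. The study asked how loss of Polycomb Repressive Complex 2 (PRC2), which places the repressive histone mark H3K27me3, changes gene expression in ESCs and during directed differentiation toward spinal motor neurons. The 4 ESC libraries were E14 wild type (129/Ola background), CJ7 wild type (129/S), *Suz12delta* (C57/BL6) and *Eednull* (BALB/cR1). The 4 day 5 libraries were E14 wild type, *Suz12GT* (129/Ola), *Suz12delta* and *Eednull*. *Suz12GT* ESCs were not analysed here. *Suz12delta* encodes a truncated SUZ12 and *Eednull* carries a point mutation in *Eed*, both core PRC2 subunits, and these lines are called the null lines here. *Suz12GT* is a gene trap allele that fuses SUZ12 to β-galactosidase and keeps part of the mark. Each mutant genotype was represented by 1 line, so line and genotype cannot be told apart. *Suz12GT* shares its 129/Ola background with E14, whereas each null line has a background of its own, which cannot be told apart from its genotype. All ESCs were grown on irradiated mouse embryonic fibroblasts in serum and LIF, and the feeders were removed by plating before collection. SMN differentiation removed LIF and added retinoic acid and a Hedgehog pathway agonist.

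The trophoblast is the first lineage set apart in the mouse embryo and gives rise to the placenta. In the outer cells of the early embryo, TEAD4 acts with the coactivator YAP1, whose entry into the nucleus is controlled by Hippo signaling, to switch on *Cdx2* and *Gata3*. CDX2 opposes the pluripotency factor OCT4, and CDX2, EOMES, ELF5 and TFAP2C maintain trophoblast stem cells, while GATA2, GATA3 and TFAP2A act in trophoblast progenitors and their descendants. HAND1 drives the formation of trophoblast giant cells, and ESX1 is an X-linked homeodomain protein of the placental labyrinth and of male germ cells. ESCs come from the inner cell mass and normally do not enter this lineage. Most of these factors also act elsewhere in the embryo, such as *Cdx2* in the posterior body axis, *Gata2* and *Gata3* in blood and in V2b spinal interneurons, *Tfap2a* in neural crest and surface ectoderm, *Tfap2c* in germ cells and *Hand1* in lateral mesoderm and heart.

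The members *Cdx2*, *Gata2*, *Gata3* and *Elf5* were at least 2-fold higher at day 5 than in ESCs in both null lines, and their promoters are shown for that reason. For *Gata2* only the first start is shown. Each sequence is the 250 bases before the transcription start in RefSeq (GRCm38.p6, another build than that of the expression table), 5′ to 3′ on the strand of the gene, with each CpG in capitals.
Cdx2, chr5:147307250-147307499, minus strand: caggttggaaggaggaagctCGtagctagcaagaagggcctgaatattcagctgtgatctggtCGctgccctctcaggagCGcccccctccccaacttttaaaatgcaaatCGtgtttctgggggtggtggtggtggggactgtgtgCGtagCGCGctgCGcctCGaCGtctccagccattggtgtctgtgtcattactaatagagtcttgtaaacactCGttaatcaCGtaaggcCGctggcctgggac
Gata2, first start, chr6:88193641-88193890, plus strand: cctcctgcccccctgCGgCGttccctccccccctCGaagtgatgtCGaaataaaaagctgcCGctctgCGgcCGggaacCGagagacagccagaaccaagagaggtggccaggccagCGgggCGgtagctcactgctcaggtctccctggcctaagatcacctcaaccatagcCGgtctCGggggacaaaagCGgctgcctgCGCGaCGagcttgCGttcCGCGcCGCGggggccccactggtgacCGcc
Gata3, chr2:9878601-9878850, minus strand: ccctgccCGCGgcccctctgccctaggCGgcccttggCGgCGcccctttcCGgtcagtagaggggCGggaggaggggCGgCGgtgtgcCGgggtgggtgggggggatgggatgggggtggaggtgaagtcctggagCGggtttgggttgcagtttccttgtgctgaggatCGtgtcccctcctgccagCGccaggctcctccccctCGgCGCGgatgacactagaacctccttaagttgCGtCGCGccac
Elf5, first start, chr2:103411848-103412097, plus strand: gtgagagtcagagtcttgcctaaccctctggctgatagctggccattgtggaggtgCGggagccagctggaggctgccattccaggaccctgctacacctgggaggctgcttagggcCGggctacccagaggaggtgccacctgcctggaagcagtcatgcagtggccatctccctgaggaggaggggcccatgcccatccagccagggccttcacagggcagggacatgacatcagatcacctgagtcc
Elf5, second start, chr2:103423818-103424067, plus strand: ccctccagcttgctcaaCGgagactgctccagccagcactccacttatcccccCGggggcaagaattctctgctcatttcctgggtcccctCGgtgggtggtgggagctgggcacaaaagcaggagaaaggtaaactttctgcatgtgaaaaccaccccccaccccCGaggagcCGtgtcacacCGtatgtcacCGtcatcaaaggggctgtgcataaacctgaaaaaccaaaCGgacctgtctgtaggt
CpG-rich promoters of developmental genes are the usual sites of H3K27me3 in ESCs. The median over 32851 RefSeq promoters of this length was 6 CpGs. The *Cdx2* promoter held 13 CpGs, the *Gata3* promoter 19 and the first *Gata2* promoter 22, numbers that 31.5%, 19.7% and 14.8% of all promoters reached or passed. The second *Gata2* promoter held 24, which 12% reached. *Elf5* had 2 CpGs before its first start, a number that 81.2% of promoters reached. Before its second it had 8, which 43% reached. The bases after the first *Elf5* start were not found in a transcript, while those after the second were. The first *Tfap2a* start, counted below, also lacked such a transcript. In all, 6 of the 9 members matched the promoter table, with 9 starts. The AP-2 motif GCCNNNGGC, which reads the same on both strands, was present in 3 of these 9 promoters, those of *Cdx2*, *Gata3* and the second *Gata2* start, against 13.7% of all promoters. The GATA motifs AGATAA and TGATAA, sought on both strands, were found in 0 of the 9, against 16.6% of all promoters. The TEAD motif GGAATG, on either strand, was found in 2 of the 9, those of the first *Elf5* and the second *Gata2* start, against 12.6% of all promoters. A match is a description of these letters and does not show binding.

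Expression was given as FPKM, a fragment count corrected for how long the transcript is and how many fragments each library had mapped. These corrections make libraries comparable only in part, since whole libraries can still be shifted against each other. In *Suz12delta* cells the median log2 ratio of day 5 to ESCs over all genes was 0.43. This median was 0.07 once the 75th percentiles had been made equal. There was 1 library per condition. No difference below has a replicate check, no order of neighbouring levels can be set against a spread, and no p-value is given. Depth in reads is unknown, and the FPKM values of a library summed to between 389165 and 797748. ESC libraries expressed the pluripotency genes *Pou5f1*, *Nanog*, *Zfp42*, *Esrrb*, *Klf4* and *Sox2*, with summed levels from 239 FPKM in *Suz12delta* to 636 FPKM in E14. The motor neuron lineage genes *Olig2*, *Pax6*, *Nkx6-1*, *Isl1*, *Mnx1* and *Lhx3* summed at day 5 to 119 FPKM in E14 and 96.1 FPKM in *Suz12GT*. They summed to 19.7 FPKM in *Suz12delta* and 18.2 FPKM in *Eednull* cells. All 6 genes were at least 2-fold lower there than in E14, against 9.52% and 11.3% of all genes. The null libraries labelled as day 5 of SMN differentiation thus held less RNA of these genes than E14, to a degree that varied by gene. *Olig2* was at 0.107 and 0.0455 FPKM in *Suz12delta* and *Eednull* cells. *Pax6* was at 7.24 and 9.35 FPKM, near its 8.18 FPKM in *Suz12GT*, and *Isl1* at 5.32 and 4.43 FPKM. *Suz12* itself was at 6.21 FPKM in *Suz12delta* ESCs against 41.3 FPKM in E14 and 53.1 FPKM in CJ7 ESCs. Its day 5 level was 11.6 FPKM in *Suz12delta*, 10.3 FPKM in *Suz12GT* and 16.2 FPKM in E14 cells, so the gene-level value separates the *Suz12* alleles less at day 5. A point mutation in *Eed* need not change its RNA, which was at 42.4 FPKM in *Eednull* and 32.7 FPKM in E14 ESCs.

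The 9 members were nearly silent in wild-type SMN cultures and were all expressed in the null lines at day 5. In E14 day 5 cells 0 of 9 members reached 1 FPKM, while 2 did in *Suz12GT*, 9 in *Suz12delta* and 8 in *Eednull* day 5 cells. In ESCs 3 members reached this level in E14, 2 in CJ7, 8 in *Suz12delta* and 8 in *Eednull*. For all 9 members E14 day 5 had the lowest value, tied at 0 with CJ7 ESCs for *Elf5*, which was the case for 22.6% of the 18538 genes at 1 FPKM or more in some library. The highest value lay in a null line for 8 of the 9 and at day 5 of a null line for 5. For the counts of highest values and those at 1 FPKM no share of all genes was computed, so they describe the members only.

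**Figure D1:**
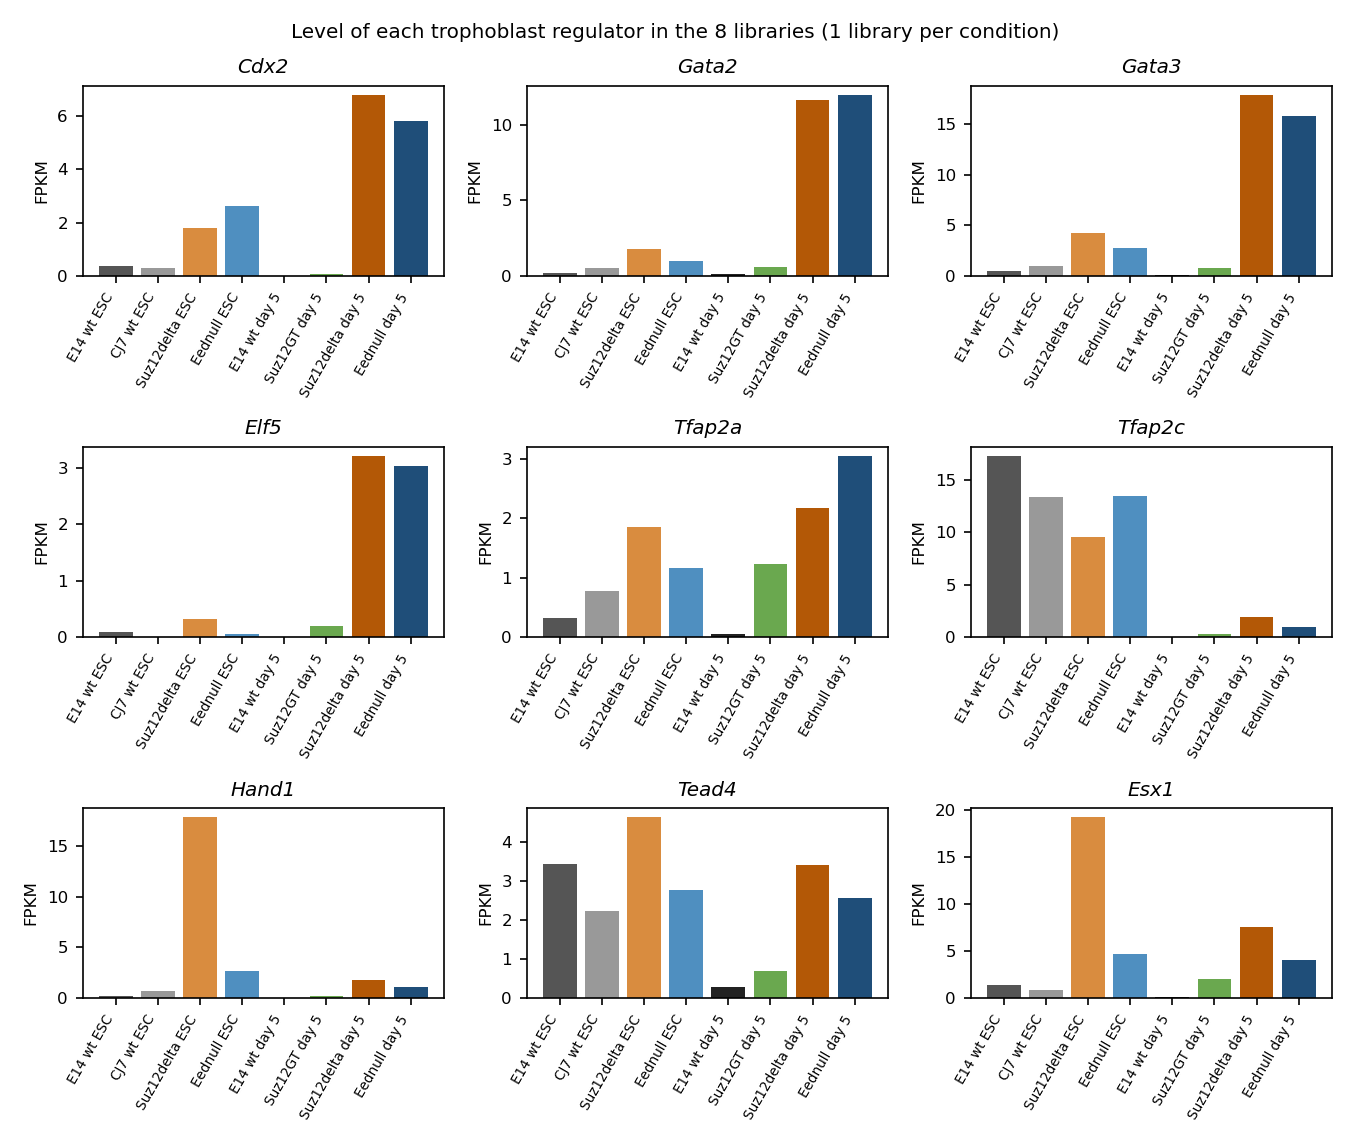
Bars give the FPKM of each member in each of the 8 libraries, with 1 library per condition, a linear axis from 0 in each panel and no error bars. *Cdx2*, *Gata2*, *Gata3* and *Elf5* stood highest at day 5 of both null lines, *Hand1* and *Esx1* in *Suz12delta* ESCs, and *Tfap2c* in E14 ESCs.

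*Cdx2* (chr5:148112476-148118825, NCBI build 37), whose product specifies trophectoderm, was at 0.394 FPKM in E14, 0.296 in CJ7, 1.80 in *Suz12delta* and 2.62 in *Eednull* ESCs. At day 5 it was at 0.00927 FPKM in E14, 0.0668 in *Suz12GT*, 6.77 in *Suz12delta* and 5.79 in *Eednull* cells. Both null lines thus exceeded both wild-type lines in ESCs, and the gap was wider at day 5, with *Suz12GT* next to wild type.

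*Gata3* (chr2:9778705-9811661), a target of TEAD4 in the outer cells of the embryo, was at 0.479 FPKM in E14, 0.948 in CJ7, 4.22 in *Suz12delta* and 2.80 in *Eednull* ESCs. Its level at day 5 was 0.118 FPKM in E14, 0.772 in *Suz12GT*, 17.8 in *Suz12delta* and 15.7 in *Eednull* cells, the highest day 5 levels of any member in both null lines. The interval that the table gives for *Gata3* overlaps 3 other annotated genes, 2 of them on the other strand. Strand is not given for these libraries, so reads of overlapping transcripts could not be told apart. *Gata2* (chr6:88143885-88157024), which overlaps no other annotated gene and acts beside *Gata3* in trophoblast progenitors, was at 0.228 FPKM in E14, 0.541 in CJ7, 1.81 in *Suz12delta* and 1.01 in *Eednull* ESCs. Its day 5 levels were 0.131 FPKM in E14, 0.591 in *Suz12GT*, 11.7 in *Suz12delta* and 12.0 in *Eednull* cells. The pair of GATA genes had the same order of wild type, *Suz12GT* and null lines at day 5.

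*Elf5* (chr2:103251845-103291146), an ETS factor whose promoter is normally DNA-methylated in ESCs and which reinforces the trophoblast stem cell state, was the lowest member in ESCs. It was at 0.0971 FPKM in E14, listed at 0 in CJ7, at 0.325 in *Suz12delta* and at 0.0595 in *Eednull* ESCs. At day 5 it was listed at 0 in E14 and was at 0.197 FPKM in *Suz12GT*, 3.21 in *Suz12delta* and 3.03 in *Eednull* cells. Unlike *Cdx2* and *Gata3*, *Elf5* did not pass 0.325 FPKM in any ESC library, null lines included, and was above 1 FPKM only at day 5 of the null lines. A value listed at 0 can be a failed estimate, and each library had between 0 and 5 genes with a listed value of 0 that reached 10 FPKM in every other library.

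*Tfap2a* (chr13:40811044-40830514), an AP-2 factor, was at 0.322 FPKM in E14, 0.780 in CJ7, 1.85 in *Suz12delta* and 1.16 in *Eednull* ESCs. By day 5 it was at 0.0507 FPKM in E14, 1.23 in *Suz12GT*, 2.17 in *Suz12delta* and 3.05 in *Eednull* cells. *Suz12GT* cells were closer to the null lines for this gene than for *Cdx2* or the GATA genes. *Tfap2a* overlaps 1 annotated non-coding gene on the other strand.

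*Tfap2c* (chr2:172375093-172384122), the AP-2 factor of trophoblast stem cells and germ cells, was the most abundant member in wild-type ESCs. It was at 17.3 FPKM in E14, 13.4 in CJ7, 9.54 in *Suz12delta* and 13.4 in *Eednull* ESCs. By day 5 it was at 0.0492 FPKM in E14, 0.304 in *Suz12GT*, 1.91 in *Suz12delta* and 0.970 in *Eednull* cells. It was the only member whose highest value lay in a wild-type library. *Tead4* (chr6:128174306-128250841), which acts upstream of *Cdx2*, was also expressed in every ESC library, at 3.42 FPKM in E14, 2.23 in CJ7, 4.63 in *Suz12delta* and 2.76 in *Eednull* ESCs. At day 5 it was at 0.291 FPKM in E14, 0.697 in *Suz12GT*, 3.39 in *Suz12delta* and 2.56 in *Eednull* cells, so that the null lines kept a level near that of ESCs.

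*Hand1* (chr11:57642207-57646320), the giant cell factor, was at 0.198 FPKM in E14, 0.722 in CJ7, 17.9 in *Suz12delta* and 2.63 in *Eednull* ESCs. In day 5 cells it was listed at 0 in E14 and was at 0.219 FPKM in *Suz12GT*, 1.79 in *Suz12delta* and 1.08 in *Eednull* cells. *Esx1* (chrX:133649936-133656622) was at 1.39 FPKM in E14, 0.883 in CJ7, 19.3 in *Suz12delta* and 4.73 in *Eednull* ESCs. In day 5 cells it was at 0.1004 FPKM in E14, 1.99 in *Suz12GT*, 7.55 in *Suz12delta* and 4.06 in *Eednull* cells. In both genes the *Suz12delta* ESC library was the highest of the 8.

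The first comparison asked which members differed between ESCs with and without PRC2 function. Ratios between libraries were taken as log2 of FPKM plus 0.1, for members at 0.1 FPKM or more in either library, and a ratio of 1 or more in size, a 2-fold difference, was counted. Against E14 ESCs, 7 of 9 members were at least 2-fold higher in *Suz12delta* ESCs, where 18.0% of 21980 genes were, and 0 were lower, against 22.8% of genes. Scaled to the same 75th percentile, the all-gene shares were 23.1% higher and 14.1% lower. Of these 7 members *Elf5*, at 0.0971 FPKM in E14, passed the minimum only through *Suz12delta*. Its ratio of 1.11 was 0.27 with a pseudocount of 1. In *Eednull* ESCs 6 of 8 members were at least 2-fold higher, where 22.4% of 24280 genes were, and 0 were lower, against 11.9%. *Elf5* was under the minimum in that pair. The median log2 ratio of the members was 2.21 in *Suz12delta* and 1.73 in *Eednull* ESCs, against -0.28 and 0.04 over all genes. *Hand1* had the largest ratio in both lines, 5.92 and 3.20. *Gata3* followed *Esx1* in *Suz12delta* ESCs, at 2.90 and 3.70. *Tfap2c* and *Tead4* were within 2-fold in both lines, with ratios of -0.85 and -0.36 for *Tfap2c* and 0.42 and -0.30 for *Tead4*.

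**Figure D2:**
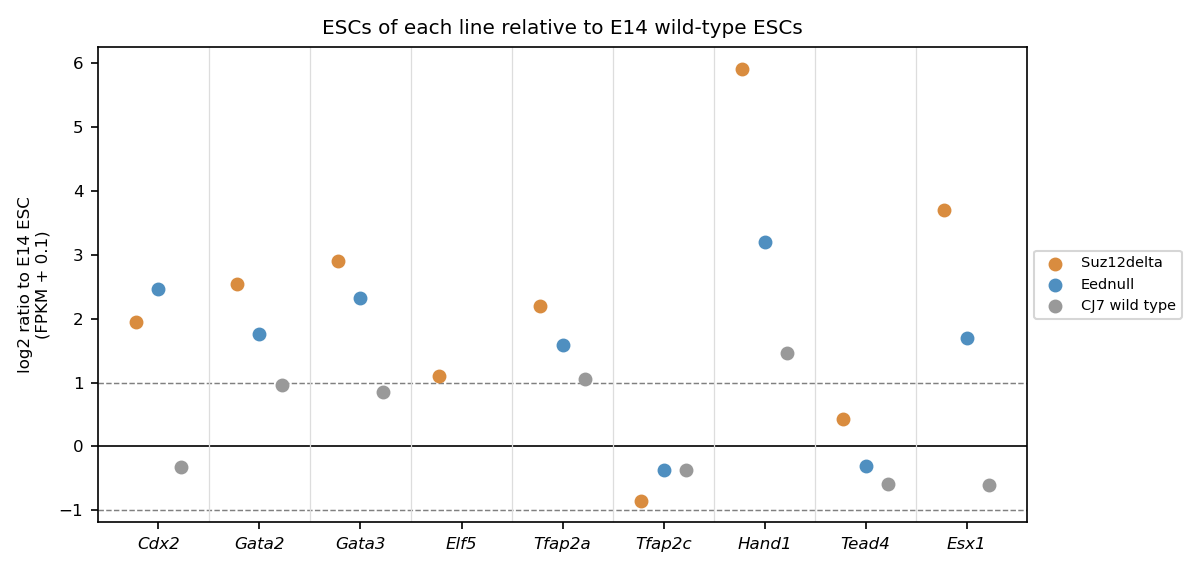
Points give the log2 ratio of FPKM plus 0.1 of each ESC line to E14 ESCs for each member, 1 library per line, and dashed lines mark 2-fold. *Elf5* has a point for *Suz12delta* only, since it was under 0.1 FPKM in the other libraries compared. For 6 members, *Cdx2*, *Gata2*, *Gata3*, *Tfap2a*, *Hand1* and *Esx1*, both null lines lay above 2-fold and above CJ7, while *Tfap2c* and *Tead4* lay within 2-fold in all 3 lines.

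CJ7 gives a second wild-type line, whose difference from E14 may hold batch as well as line. In CJ7 ESCs 2 of 8 members were at least 2-fold higher than in E14, *Hand1* with a ratio of 1.47 and *Tfap2a* with 1.06, where 15.7% of 23141 genes were higher, and 0 were lower, against 14.7%. According to the labels the CJ7 library was prepared and sequenced with a library whose name is that of the *Eednull* ESC column, so the pair CJ7 and *Eednull* would share a batch. If the E14 ESC library belongs to another batch, the comparisons of CJ7 and of *Eednull* with E14 ESCs cross batches. Within that pair, 4 of 8 members were at least 2-fold higher in *Eednull* ESCs, against 20.5% of all genes, and 0 were lower, against 10.7%. The 4 were *Cdx2* with a ratio of 2.78, *Esx1* with 2.30, *Hand1* with 1.73 and *Gata3* with 1.47. *Gata2* and *Tfap2a*, at 0.79 and 0.52, did not pass 2-fold there. In *Suz12delta* against CJ7 ESCs 8 of 9 members were at least 2-fold higher, as were 21.1% of genes, and 0 were lower, as were 24.0%, and without *Elf5*, listed at 0 in CJ7, 7 of 8 were higher. A total of 4 members were at least 2-fold higher in both null lines than in both wild-type lines, *Cdx2*, *Gata3*, *Hand1* and *Esx1*, as were 3.40% of 26545 genes.

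The null ESC lines also differed from each other. *Hand1* was higher in *Suz12delta* than in *Eednull* ESCs by a log2 ratio of 2.72, *Esx1* by 2.003 and *Elf5* by 1.41. Of all genes 12.9% were at least 2-fold higher. *Elf5*, at 0.325 against 0.0595 FPKM, passed the minimum only through *Suz12delta*. No member was at least 2-fold lower, against 24.6% of genes, and the other 6 members were within 2-fold, as were 62.5% of genes. Fibroblast genes moved with this difference. The 10 markers *Col1a1*, *Col1a2*, *Col3a1*, *Dcn*, *Lum*, *Postn*, *Thy1*, *Pdgfrb*, *Fbn1* and *Loxl1* summed to 93.2 FPKM in E14, 117 in CJ7, 544 in *Suz12delta* and 272 in *Eednull* ESCs. None was listed at 0. In *Suz12delta* ESCs 10 of 10 were at least 2-fold higher than in E14 ESCs, against 18.0% of all genes. In *Eednull* ESCs 4 of these 10 markers were, against 22.4% of all genes. Their part in the ESC values of *Hand1*, *Esx1* and the other members was not tested. In bulk RNA, more cells of a type and more RNA per cell cannot be told apart.

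The second comparison asked how the members changed from ESCs to day 5 in each line. In E14 cells 7 of 8 members were at least 2-fold lower at day 5, where 25.8% of 21563 genes were, and 0 were higher, against 18.3%. *Tfap2c* changed most, by a log2 ratio of -6.87, followed by *Tead4* with -3.17, *Esx1* with -2.90 and *Cdx2* with -2.18. *Gata2* stayed within 2-fold at -0.50, and *Elf5* was under the minimum in both libraries. *Hand1*, listed at 0 at day 5, is in this count, and without it 6 of 7 members were lower, against 21.3% of the genes above 0 in both libraries. *Cdx2*, *Tfap2a* and *Tfap2c*, at 0.00927, 0.0507 and 0.0492 FPKM at day 5, passed the minimum only through ESCs. With a pseudocount of 1 only *Tfap2c*, *Tead4* and *Esx1* were at least 2-fold lower, against 13% of all genes.

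In the null lines the members split into those that were higher and those that were lower at day 5. In *Suz12delta* cells 4 of 9 were at least 2-fold higher, where 26.9% of 22681 genes were, and 3 were lower, where 12.6% of genes were. Scaled to the same 75th percentile, the all-gene shares were 17.7% and 16.8%. In *Eednull* cells 5 of 9 were higher, against 18.4% of 24638 genes, and 2 were lower, against 24.8% of genes. The 4 members higher in both lines, as 9.47% of all genes were, were *Cdx2*, *Gata2*, *Gata3* and *Elf5*. At this pseudocount *Elf5* had the largest ratios, 2.96 in *Suz12delta* and 4.29 in *Eednull* cells. Next came *Gata2* with 2.63 and 3.44, *Gata3* with 2.05 and 2.45 and *Cdx2* with 1.85 and 1.11. *Elf5* was at 0.0595 FPKM in *Eednull* ESCs and passed the minimum there only through day 5. With a pseudocount of 1 its ratios were 1.67 and 1.93, under those of *Gata2*, 2.18 and 2.69, and *Gata3*, 1.85 and 2.14. The 2 members lower in both lines, as 5.59% of all genes were, were *Tfap2c*, with -2.26 and -3.66, and *Hand1*, with -3.25 and -1.21. *Tead4* was within 2-fold in both. *Tfap2a* was higher only in *Eednull* cells, at 1.32 against 0.23 in *Suz12delta* cells, and *Esx1* was lower only in *Suz12delta* cells, at -1.34 against -0.22, and these differences between the lines were not tested. The median over all genes was 0.43 in *Suz12delta*, -0.08 in *Eednull* and -0.20 in E14 cells, so the *Suz12delta* value of *Tfap2a* lay below the shift of all genes. If the *Eednull* ESC library belongs to another batch than the day 5 library, the change in *Eednull* cells crosses batches.

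**Figure D3:**
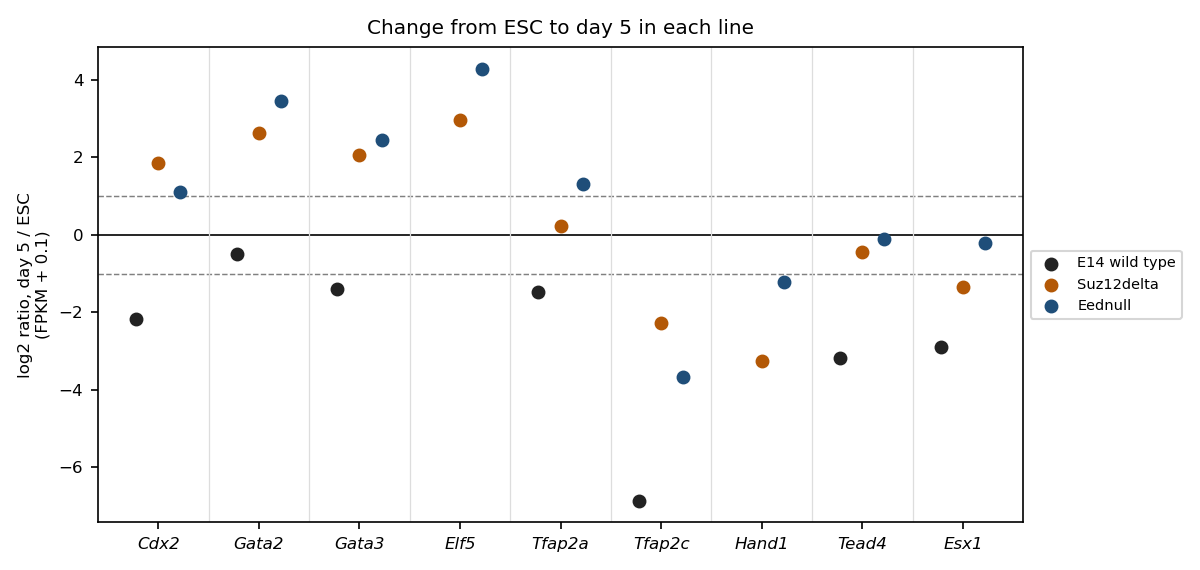
Points give the log2 ratio of FPKM plus 0.1 at day 5 to that in ESCs of the same line, 1 library each, and dashed lines mark 2-fold. For E14, *Elf5* has no point because it was under 0.1 FPKM in both libraries, and *Hand1* has none because it was listed at 0 at day 5. All E14 points lie below 0, while both null lines lie above 2-fold for *Cdx2*, *Gata2*, *Gata3* and *Elf5* and below it for *Tfap2c* and *Hand1*.

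Opposite changes, a 2-fold or larger decrease in E14 and a 2-fold or larger increase in both null lines, were found for *Cdx2* and *Gata3*. Only 0.829% of 26666 genes had this combination. *Cdx2* and *Gata3* were at only 0.394 and 0.479 FPKM in E14 ESCs, and with a pseudocount of 1 neither kept the pattern. Their changes in E14 were then -0.47 and -0.40, and that of *Cdx2* in *Eednull* cells was 0.91. *Gata2* and *Elf5* shared the increase in the null lines without a 2-fold decrease in wild-type cells, in which both were already under 0.3 FPKM as ESCs.

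The third comparison asked how far the day 5 cells of each mutant line differed from wild-type day 5 cells. In *Suz12delta* cells 9 of 9 members were at least 2-fold higher than in E14, as were 26.6% of 22069 genes, and in *Eednull* cells 9 of 9 were, as were 21.6% of 21442 genes. No member was lower in either line, against 9.52% and 11.3% of genes, and 16.4% of genes were higher in both. *Elf5* and *Hand1*, listed at 0 in E14, are in these counts by construction, since any gene at 0 in E14 that passes the minimum counts as at least 2-fold higher. Without them 7 of 7 members were higher in each line, against 20.9% and 16.8% of the genes above 0 in both libraries. Of these, *Cdx2*, *Tfap2a* and *Tfap2c* were under 0.1 FPKM in E14, at 0.00927, 0.0507 and 0.0492 FPKM. They passed the minimum only through the null line, so their calls partly follow from the minimum too. Over all 7 members the median log2 ratio was 5.25 in *Suz12delta* and 4.38 in *Eednull* cells. Over all genes above 0 in both libraries it was 0.21 and 0.05. The ratios in *Suz12delta* and *Eednull* cells were 6.36 and 6.18 for *Gata3*, 5.97 and 5.75 for *Cdx2*, and 5.67 and 5.71 for *Gata2*. *Esx1* had ratios of 5.25 and 4.38 and *Tfap2a* of 3.92 and 4.38. They were smallest for *Tfap2c*, at 3.75 and 2.84, and *Tead4*, at 3.16 and 2.77.

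*Suz12GT* cells, which keep part of H3K27me3, lay between wild-type and null cells. Of the members above 0 in both libraries 6 of 6 were at least 2-fold higher than in E14, as were 13.2% of such genes. Among these, *Tfap2a* and *Tfap2c* were under 0.1 FPKM in E14 and passed the minimum only through *Suz12GT*. With *Elf5* and *Hand1*, whose calls follow from their 0 in E14, the count was 8 of 8, against 16.8% of 20840 genes, and 0 were lower, against 4.40%. *Cdx2* was under the minimum in both libraries. Over the 6 members above 0 in both libraries the log2 ratio ranged from 1.03 for *Tead4* to 3.38 for *Esx1*, with 3.14 for *Tfap2a*, 2.001 for *Gata3*, 1.58 for *Gata2* and 1.44 for *Tfap2c*. Only *Tfap2a* and *Esx1* reached 1 FPKM, and the ratios of the other members set values under 1 FPKM against each other. All 9 members followed the order of wild type, then *Suz12GT*, then both null lines, an order found in 22.1% of 23284 genes. With each step at least 2-fold the order held for 6 members, *Gata2*, *Gata3*, *Elf5*, *Tfap2c*, *Hand1* and *Tead4*, and for 2.94% of genes. For *Elf5* and *Hand1* the first of these steps starts from 0, and for *Tfap2c* from 0.0492 FPKM, under the minimum. For all 6 members the first step compared values under 1 FPKM. Such values cannot differ 2-fold with a pseudocount of 1, so none of the 6 would keep the 2-fold steps under that setting. *Cdx2* departed from the order with 2-fold steps because *Suz12GT* and wild-type cells were both under 0.1 FPKM. *Tfap2a* and *Esx1* departed from it because *Suz12GT* was within 2-fold of a null line, *Suz12delta* for *Tfap2a* with a log2 ratio of -0.78 and *Eednull* for *Esx1* with -0.997. Against each null line 8 of 9 members were at least 2-fold lower in *Suz12GT*, as were 19.3% of genes against *Suz12delta* and 14.4% against *Eednull*, and 0 were higher, against 12.5% and 14.9%.

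**Figure D4:**
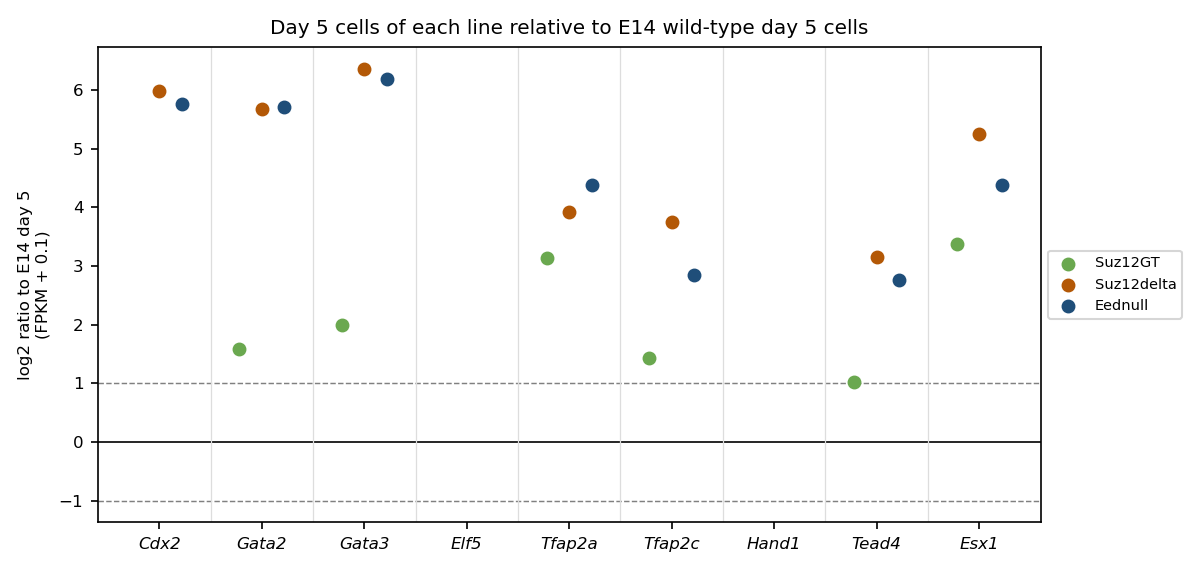
Points give the log2 ratio of FPKM plus 0.1 of each mutant line at day 5 to E14 day 5 cells, 1 library each, and dashed lines mark 2-fold. *Elf5* and *Hand1* have no points because they were listed at 0 in E14, and *Cdx2* has none for *Suz12GT*. The *Suz12GT* point lies below both null points for each member that has one, nearest to them for *Tfap2a* and *Esx1*.

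At day 5 all 9 members were within 2-fold of each other between *Suz12delta* and *Eednull* cells. This is near the share of all genes, 85.5% of 22093, with 9.93% higher and 4.62% lower in *Suz12delta*. The log2 ratio of *Suz12delta* to *Eednull* ranged from -0.47 for *Tfap2a* to 0.91 for *Tfap2c*. *Hand1*, which had differed by 2.72 in ESCs, differed by 0.68.

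Across the 8 libraries the members fell into patterns that can be described by Pearson's r of log2 FPKM plus 0.1, with no test, since the libraries share lines. *Gata2* and *Gata3* were the most alike pair, with r = 0.98, followed by *Cdx2* and *Gata3* with 0.95 and *Gata2* and *Elf5* with 0.94. *Hand1* and *Esx1* had r = 0.91 and *Tfap2c* and *Tead4* 0.83, while *Tfap2c* and *Elf5* had -0.16. Among 18538 genes at 1 FPKM or more in some library, the gene most like *Cdx2* was *Cdcp1*, which encodes a transmembrane glycoprotein, with r = 0.99, followed by the posterior homeobox gene *Hoxa13* and the ligand gene *Wnt11*, both at 0.98. *Osr1*, a zinc finger gene of intermediate mesoderm, was most like *Gata2* (0.99), *Pde3a*, a phosphodiesterase gene, most like *Gata3* (0.99), and *Gja3*, a connexin gene, most like *Elf5* (0.99). The second gene most like *Elf5*, at 0.99, was *4930412O13Rik*, one of the genes that overlap *Gata3* on the other strand. *Abcb1a*, a drug efflux transporter gene, was most like *Tfap2c* at 0.998. *Ppbp*, a platelet chemokine gene, was most like *Hand1* at 0.995, *Fam46b* most like *Tead4* at 0.99, *Leprel4* most like *Tfap2a* at 0.98 and *Aga*, a lysosomal amidase gene, most like *Esx1* at 0.99.

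Other members of the same gene families did not all share these patterns. Of 14 paralogues 12 could be compared between *Suz12delta* and E14 day 5 cells, and 11 were at least 2-fold higher, while 9 of 10 were in *Eednull* cells and 7 of 10 in *Suz12GT* cells, against 26.6%, 21.6% and 16.8% of all genes. Genes listed at 0 in E14 are in these counts and those below. The endoderm and heart factor *Gata4* was at 10.3 FPKM in *Suz12delta*, 12.1 in *Eednull* and 11.6 in *Suz12GT* day 5 cells and was listed at 0 in E14, so that it did not share the low *Suz12GT* level of *Gata2* and *Gata3*. *Gata5* was at 5.85 and 4.14 FPKM in *Suz12delta* and *Eednull* day 5 cells against 0.102 FPKM in E14 and 0.320 in *Suz12GT*. *Cdx1* went the other way from *Cdx2*: it was at 3.96 FPKM in *Suz12delta* and 3.24 in *Eednull* ESCs, and at 0.568 and 0.0421 FPKM at day 5. *Elf3*, an epithelial ETS factor, was at 12.4 and 8.73 FPKM in the null lines at day 5 and at 0.132 FPKM in E14. *Tead1*, *Tead2* and *Tead3* were expressed throughout, with *Tead2* the most abundant, from 36.1 FPKM in *Suz12delta* ESCs to 176 FPKM in *Eednull* day 5 cells. *Tead4* was therefore the least abundant of the TEAD genes in every day 5 library, E14 included.

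Cofactors of TEAD proteins and Hippo pathway genes were compared at day 5. Of the 9 listed genes, *Yap1*, *Wwtr1*, *Lats1*, *Lats2*, *Nf2*, *Amot*, *Amotl1*, *Amotl2* and *Vgll4*, 2 were at least 2-fold higher in *Suz12delta* than in E14 day 5 cells, 1 in *Eednull* and 0 in *Suz12GT*, against 26.6%, 21.6% and 16.8% of all genes, and 0 were lower in each. *Amot*, an inhibitor of YAP1, was the gene higher in both, with log2 ratios of 1.28 and 1.19. *Yap1* was at 13.3 FPKM in E14 day 5 cells, 12.6 in *Suz12GT*, 25.5 in *Suz12delta* and 20.3 in *Eednull* cells.

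Among 10 other genes of trophoblast stem cells and their epithelium, 8 were at least 2-fold higher than in E14 at day 5 in *Suz12delta* and 8 in *Eednull* cells, against 26.6% and 21.6% of all genes, and 1 was lower in each, against 9.52% and 11.3%. *Krt7*, a keratin of trophoblast and other simple epithelia, was at 0.181 FPKM in E14 day 5 cells, 1.57 in *Suz12GT*, 27.8 in *Suz12delta* and 32.7 in *Eednull* cells. *Krt19* was at 0.490, 8.67, 61.9 and 68.9 FPKM in the same libraries. *Krt8* and *Krt18*, which pair in simple epithelia, had log2 ratios to E14 of 6.24 and 4.74 in *Suz12delta* and 5.82 and 4.29 in *Eednull* cells. *Ets2*, which supports trophoblast stem cells, was at 26.8 and 23.4 FPKM in the null lines against 3.87 FPKM in E14. *Eomes*, a defining factor of trophoblast stem cells, was low at day 5, at 0.454 FPKM in *Suz12delta* and 0.199 in *Eednull* cells against 0.0172 in E14, and *Fgfr2*, the receptor of their growth signal, was within 2-fold of E14. *Sox21* was the gene that was lower in both null lines, with log2 ratios of -2.65 in each.

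Among genes of differentiated placental cells, some were higher than in E14 and the defining hormone genes were at or near 0. Of 18 listed genes, 10 could be compared between *Suz12delta* and E14 day 5 cells and 9 were at least 2-fold higher, while 8 of 9 were in *Eednull* and 7 of 8 in *Suz12GT* cells, against the same 26.6%, 21.6% and 16.8% of all genes. The defining markers of giant cells and spongiotrophoblast, *Prl3d1* and *Tpbpb*, were listed at 0 in all 8 libraries, *Tpbpa* did not pass 0.0854 FPKM and *Prl3b1* did not pass 0.125 FPKM. *Gcm1*, which directs syncytiotrophoblast formation, was at 0.0175 and 0.0251 FPKM in *Suz12delta* and *Eednull* day 5 cells. Genes above 1 FPKM at day 5 in both null lines included *Dlx3*, *Pparg*, *Plac1*, *Phlda2*, *Rhox6* and *Rhox9*, of which several are used in other tissues. *Pparg* was at 6.47 FPKM in *Suz12delta* and 3.13 in *Eednull* cells, and *Plac1* at 3.75 and 2.45. *Rhox6* and *Rhox9*, X-linked homeobox genes like *Esx1*, were at 35.8 and 39.7 FPKM in *Suz12delta* ESCs against 3.62 and 3.35 in *Eednull* ESCs and 0.910 and 1.33 in E14 ESCs. The order of all 8 libraries was the same for *Rhox9* as for *Esx1*. *Prl2c2* was at 11.9 FPKM in *Suz12delta* ESCs and under 1 FPKM elsewhere, but it has near-identical relatives among which reads may be split.

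**Figure D5:**
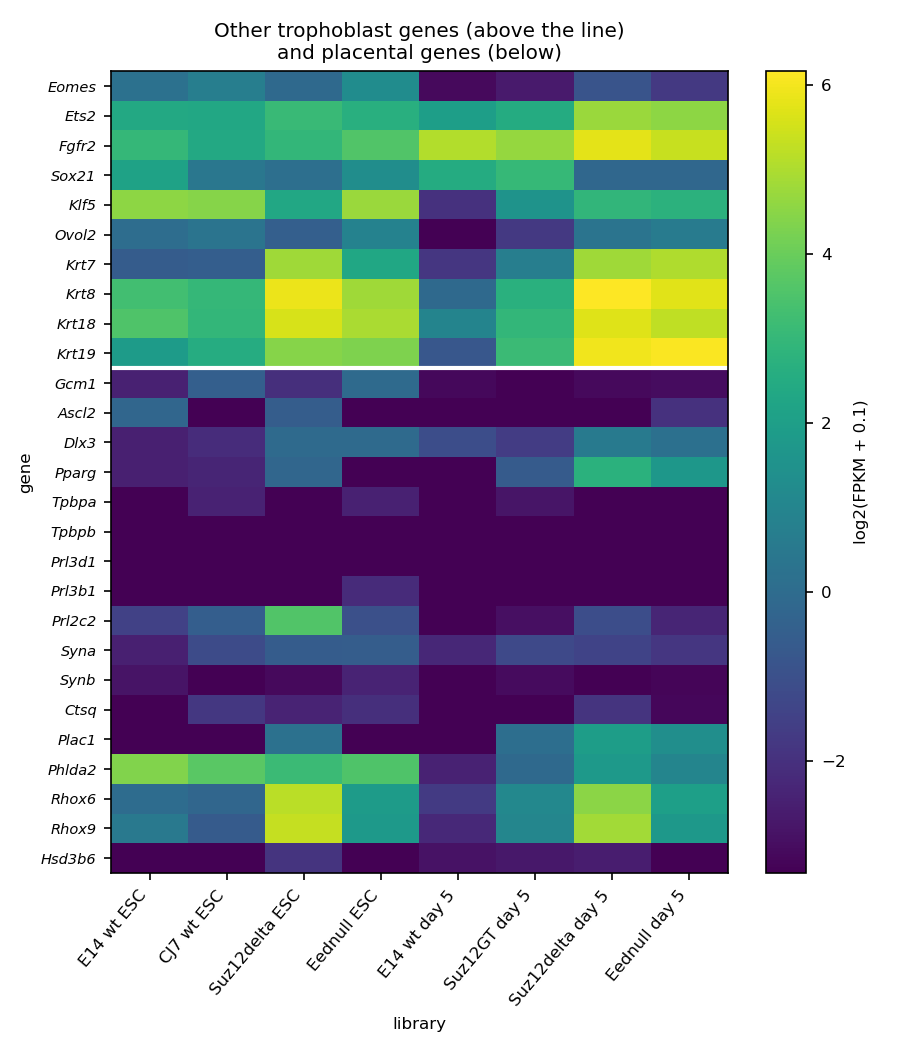
Colour gives log2 of FPKM plus 0.1 for 10 other trophoblast genes (above the white line) and placental genes (below it) in the 8 libraries, 1 library each. Keratins are bright in both null lines, and the hormone and spongiotrophoblast genes from *Tpbpa* to *Prl3b1* are dark in all libraries.

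Markers of other cell types that use the same factors also differed at day 5. For V2b interneurons, *Tal1* was at 2.12 FPKM in *Suz12delta* and 1.61 in *Eednull* cells against 0.143 in E14, but *Foxn4* was at 0.164 and 0.162 FPKM against 1.23 in E14. All 7 blood and endothelial markers were at least 2-fold higher in each null line than in E14, against 26.6% and 21.6% of all genes, and they summed to 1.03 FPKM in E14, 11.3 in *Suz12GT*, 17.9 in *Suz12delta* and 14.3 in *Eednull* cells. *Gata1*, the defining gene of red blood cell precursors, did not pass 0.175 FPKM in these libraries. The vascular receptor gene *Kdr* was at 8.45 and 7.49 FPKM in the null lines against 0.897 FPKM in *Suz12GT*. *Runx1* made up 7.05 FPKM of the *Suz12GT* sum and was at 1.07 and 0.757 FPKM in the null lines, so different genes lay behind these sums. For surface ectoderm, the defining gene *Trp63* was listed at 0 in all 4 day 5 libraries and *Krt5* and *Krt14* were under 0.5 FPKM, while *Grhl3* was at 6.87 and 7.73 FPKM in the null lines against 0.0733 in E14, and the 5 markers summed to 11.1 and 11.5 FPKM against 0.125. For neural crest, *Sox10* did not pass 0.201 FPKM and *Foxd3* did not pass 0.177 FPKM at day 5. Of the 4 markers only *Ets1*, also an endothelial gene, was above 1 FPKM. For posterior mesoderm, *Tbx6*, *Cdx4* and *Msgn1* were listed at 0 in the 4 day 5 libraries and *T* was at 0.944 and 0.671 FPKM in the null lines. Lateral mesoderm markers summed to 0.385 FPKM in E14, 5.81 in *Suz12GT*, 7.04 in *Suz12delta* and 5.63 in *Eednull* day 5 cells. All 8 extraembryonic endoderm markers were at least 2-fold higher in each mutant line, against 16.8% of all genes in *Suz12GT*, 26.6% in *Suz12delta* and 21.6% in *Eednull* cells, and they summed to 3.81 FPKM in E14, 30.4 in *Suz12GT*, 50.3 in *Suz12delta* and 41.3 in *Eednull* cells. The 5 germ cell markers summed to 2.02, 12.7 and 6.98 FPKM in *Suz12GT*, *Suz12delta* and *Eednull* cells, and in E14 only *Ddx4* was above 0. The 10 fibroblast markers summed in E14, *Suz12GT*, *Suz12delta* and *Eednull* day 5 cells to 5.07, 18.6, 126 and 66.9 FPKM. The part of these cell types in the day 5 levels of the members was not tested.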

How the data were processed

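RNA-seq of 8 libraries was analysed, each the only library of its condition, grouped by their titles. FPKM per gene was used as deposited. The submitters' processing notes name Bowtie 0.12.7, Cufflinks 1.2.1, Cuffdiff and TopHat 1.3.2, and the study's methods describe alignment to NCBI build 37 with an Ensembl-based annotation and Cufflinks options correcting for sequence bias and for reads mapping to several places. Both corrections move the values of low genes. No read steps were found (at most 1.25% of low genes shared 1 ratio), so depth is unknown. Here log2 ratios were computed from these values, with a pseudocount of 0.1, which understates changes of low genes, over genes that reached 0.1 FPKM in one of the libraries compared. A 2-fold ratio was counted as a difference. No condition had a replicate, and no test was run.

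The members and lists were chosen with earlier results of these data known. All 9 members are named, and other genes where they reached 1 FPKM or are defining markers. In addition, 1 listed placental gene is counted but not reported here by name. Likeness used the 3 genes with the highest r. The rules on several libraries, and the comparison of the null lines, were chosen after values were seen. The table's interval starts were raised by 1 base. Older symbols were matched through RefSeq synonyms. The ratio calls were tested on simulated data. The alternatives tried were a pseudocount of 1 or 0.01, a higher minimum (1 FPKM) or none, scaling to the same 75th percentile, CJ7 as the wild-type ESC and, chosen after seeing the data, only genes above 0 in both libraries. Calculations used Python 3.11.15, NumPy 2.4.6 and pandas 2.3.3.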

Additional observations from a re-analysis of the deposited data

Results flagged for a closer look

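Results were picked out where a member was at least 2-fold lower at day 5 than in ESCs in E14 cells and at least 2-fold higher in a null line, each from 1 library per condition, and the differences were not tested. For *Cdx2* the log2 change over differentiation exceeded that in E14 cells by 4.03 in *Suz12delta* and by 3.29 in *Eednull* cells. For *Gata3* it did so by 3.46 in *Suz12delta* and by 3.86 in *Eednull* cells. For *Tfap2a* it did so in *Eednull* cells only, by 2.80. The wild-type part of each difference rests on levels under 0.5 FPKM.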

How the results depend on the processing

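The day 5 and ESC libraries of E14, *Suz12delta* and *Eednull* were compared within each line. No fit with a replicate block was made, since each condition had 1 library, and no replicate could be left out. No ratio of a member that passed 2-fold changed its direction under any alternative. Of the counts of members recomputed, 103 stayed within 1.5 times the count given and 9 did not. With a pseudocount of 1, the number at least 2-fold lower over differentiation in E14 was 3, against 13% of all genes, and the numbers higher and lower in *Eednull* were 3 and 1, against 8.92% and 7.75%. The number higher in CJ7 than in E14 ESCs was then 0, against 2.1% of genes, and in *Suz12GT* than in E14 at day 5 it was 2, against 4.95%. With a minimum of 1 FPKM, the numbers were 3 lower in E14, 0 higher in CJ7 and 2 higher in *Suz12GT*, against 21.6%, 5.11% and 11.2% of genes, since fewer members were then compared. With scaling to the same 75th percentile, 4 members were higher in CJ7 than in E14 ESCs, against 17.9% of genes. The counts of 9 in both null lines at day 5 were kept under scaling. Scaling moved the median over all genes for the change in *Suz12delta* cells from 0.43 to 0.07, with 17.7% of genes higher and 16.8% lower in place of 26.9% and 12.6%. The median moved from -0.20 to -0.07 for the change in E14 and from 0.26 to 0.11 for *Suz12delta* at day 5. In ESCs it moved from -0.28 to 0.05 in *Suz12delta*, from 0.04 to 0.19 in *Eednull* and from -0.12 to 0.09 in CJ7. In ESCs it moved the split from 18.0% higher and 22.8% lower to 23.1% and 14.1% in *Suz12delta*, and from 15.7% and 14.7% to 17.9% and 11.5% in CJ7. Of the single ratios recomputed, 428 kept their side of 2-fold, 22 fell under it and 4 passed it. Levels under 1 FPKM, which include all E14 day 5 values, limit what these ratios can show.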
